A study of Mus musculus with 20 samples.

Results

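A set of 10 transcripts was followed across the series as the stellate cell and fibrosis genes of the liver: Col1a1, Col1a2, Col3a1, Timp1, Acta2, Tgfb1, Pdgfrb, Lox, Dcn and Lum. They were chosen by name, and all 10 of 10 were listed among the 13319 gene symbols counted. The livers came from male mice on a western diet, in 5 groups of 4 libraries, and each library came from 1 animal. Controls carried no hormone in their label. The other groups received glucagon, the thyroid hormone T3, both hormones together (the combination), or a single molecule that joins the hormones (the hybrid), given once a day, and livers were studied after 16 days. The hybrid libraries are labelled only with the code Cp and were assigned by elimination. All groups shared the diet and sex, and strain, age, dose and what the controls were given were not stated in the sources used here.

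Hepatic stellate cells store vitamin A at rest. After injury they become myofibroblasts that contract and secrete collagen, driven in part by TGF-beta and PDGF signals. Fibrillar collagens are cut and crosslinked outside the cell, and the matrix is then kept or removed by the balance of proteases and their inhibitors. In whole liver, fewer cells of a type and less RNA per cell cannot be told apart.

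Library totals ran from 6091917 to 23195658 counts, and levels are given as CPM, counts scaled to library size after TMM normalisation, and are not corrected for gene length. The biological coefficient of variation was 43.2% in controls and 18.9% to 25.9% in the treated groups. One control library, control 2, stood apart. It was the highest of the 4 controls for 10 of 10 genes and the highest of all 20 libraries for 8 of 10. Its summed CPM was also the highest of the controls for 20 interferon response genes (2986 against 328.6 to 557.2) and 20 skeletal muscle genes (1071 against 49.2 to 78.1). The library glucagon 3 had 4104 CPM of skeletal muscle genes, hybrid 4 had 681.5 and combination 4 had 412. The other treated libraries had 21.13 to 101.7. Over all genes, control 1 was the control least like the others. The mean chi-square per gene between control libraries was 217.15 to 289.41 for pairs with control 1. It was 57.08 to 123.8 among controls 2, 3 and 4, though this measure grows with library depth. Changes against control are given with all 20 libraries. Those of the 10 genes and the gene lists are also given without control 2 and glucagon 3, a setting chosen after the data were seen. It kept control 1, hybrid 4 and combination 4. All T3 libraries were run in lane 5 and no other library was, so T3 and its lane cannot be told apart.

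The type I collagen chains are encoded by Col1a1 (chromosome 11, 94936224 to 94953042, plus strand, GRCm38) and Col1a2 (chromosome 6, 4504814 to 4541544, plus strand), and the type III chain by Col3a1 (chromosome 1, 45311538 to 45349706, plus strand). Timp1 encodes an inhibitor of matrix metalloproteinases (chromosome X, 20870166 to 20874735, plus strand) and lies within Syn1 on the opposite strand. Because the strand setting of the counting is unknown, reads of Timp1 and Syn1 may not be separable. Col1a2, Col3a1 and Timp1 varied together over the libraries, so their promoters are shown, from 250 bases before to 50 after the RefSeq start (GRCm38.p6). The regions are chr6:4505368-4505667, chr1:45311288-45311587 and chrX:20869916-20870215, all on the plus strand. Capitals mark matches on either strand to a CCAAT box (named for its letters), a GC box with the letters GGGCGG, or a TATA box with the letters TATAAA.
Col1a2: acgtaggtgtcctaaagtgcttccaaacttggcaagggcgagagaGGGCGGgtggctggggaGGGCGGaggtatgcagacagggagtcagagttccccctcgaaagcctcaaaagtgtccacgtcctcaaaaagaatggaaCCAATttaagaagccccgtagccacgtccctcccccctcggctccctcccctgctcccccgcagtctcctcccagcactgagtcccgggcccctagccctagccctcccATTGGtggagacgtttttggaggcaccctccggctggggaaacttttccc
Col3a1: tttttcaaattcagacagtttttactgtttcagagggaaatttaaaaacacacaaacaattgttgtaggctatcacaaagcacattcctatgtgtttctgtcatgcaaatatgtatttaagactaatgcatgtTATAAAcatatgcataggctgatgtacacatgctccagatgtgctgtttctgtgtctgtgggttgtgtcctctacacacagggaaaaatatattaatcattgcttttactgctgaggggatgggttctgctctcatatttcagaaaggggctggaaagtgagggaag
Timp1: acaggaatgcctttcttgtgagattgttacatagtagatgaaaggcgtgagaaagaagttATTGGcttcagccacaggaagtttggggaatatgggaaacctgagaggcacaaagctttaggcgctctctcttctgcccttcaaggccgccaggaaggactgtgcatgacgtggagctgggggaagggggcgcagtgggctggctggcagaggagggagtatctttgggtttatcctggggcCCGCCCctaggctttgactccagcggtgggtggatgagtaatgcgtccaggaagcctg

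The Col1a2 window held CCAAT at -109 on the plus strand and at 1 on the minus strand, and GGGCGG at -205 and -188. That window begins at 4505368, inside the gene span given above, which begins at 4504814. Its positions are therefore counted from the RefSeq start and not from the start of that span. Which start is used in liver was not tested. The Col3a1 window held TATAAA at -117 and no other motif searched. The Timp1 window held CCAAT at -190 and GGGCGG at -8, both on the minus strand. Of 32851 promoters of the same length, 37.4% held CCAAT, 35.7% GGGCGG and 13.6% TATAAA on either strand. None of these 3 windows held the cAMP response element TGACGTCA (1.79% of promoters), the DR4 thyroid response element (0.0152%) or the SMAD palindrome GTCTAGAC (0.213%). None held a CArG box with the exact letters CCWWWWWWGG, where W is A or T (1.63%). The windows of Acta2 and Tgfb1 were searched too. Tgfb1 held GGGCGG at 6 positions and Acta2 held no exact match to any of the motifs. Near matches with changed letters were not searched, so a variant CArG or TATA box in Acta2 would have been missed.

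Collagen transcripts varied most among controls. With all libraries their group means were lowest in glucagon, but without control 2 the control means of Col1a1 and Col1a2 were 26.1 and 16.7 CPM, beside 27.3 and 17.0 in glucagon. Col1a1 stood at 16.5, 188, 19.7 and 42.0 CPM in controls 1 to 4. It was 32.95, 15.5, 39.6 and 21.0 in glucagon, 58.5, 44.4, 47.9 and 73.7 in T3, 29.0, 26.7, 21.2 and 57.8 in the combination, and 18.4, 47.6, 22.8 and 43.1 in the hybrid. Every group overlapped the controls, whose range was set at the top by control 2. Col1a2 varied alongside, with 13.2, 94.9, 12.3 and 24.8 CPM in controls and 11.2 to 24.8 in glucagon, 23.7 to 32.8 in T3, 14.1 to 33.3 in the combination and 15.3 to 26.7 in the hybrid. The ratio of Col1a1 to Col1a2 counts within a library stayed between 1.17 and 2.25.

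Col3a1 was the only collagen chain among the 10 genes to pass the test. It measured 32.9, 143, 15.4 and 29.9 CPM in controls and 22.7, 9.12, 22.8 and 11.9 in glucagon. In T3 it measured 39.4, 31.2, 44.9 and 44.9, in the combination 25.4, 22.01, 17.3 and 35.5, and in the hybrid 18.0, 28.1, 20.6 and 26.5. Glucagon libraries lay low but overlapped control 3. With all 20 libraries Col3a1 fell by 1.73 ± 0.48 (SE) on the log2 scale under glucagon (edgeR quasi-likelihood test, adjusted p = 0.0138). Without control 2 alone the difference was -0.64 (adjusted p = 0.155), without glucagon 2 it was -1.52 (adjusted p = 0.0524), and blocking on replicate number gave -1.50 (adjusted p = 0.0557). The call ended in these 3 settings, with only the groups compared (adjusted p = 0.131), with the block over lanes 1 to 4 (0.107) and without control 2 and glucagon 3 (0.0883). Col3a1 also differed over the 5 groups (adjusted p = 0.0297), where 42.4% of 12907 genes tested were called. That call ended under the replicate block (adjusted p = 0.0972) and without glucagon 2 (0.0603) or glucagon 4 (0.0619).

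**Figure D1:**
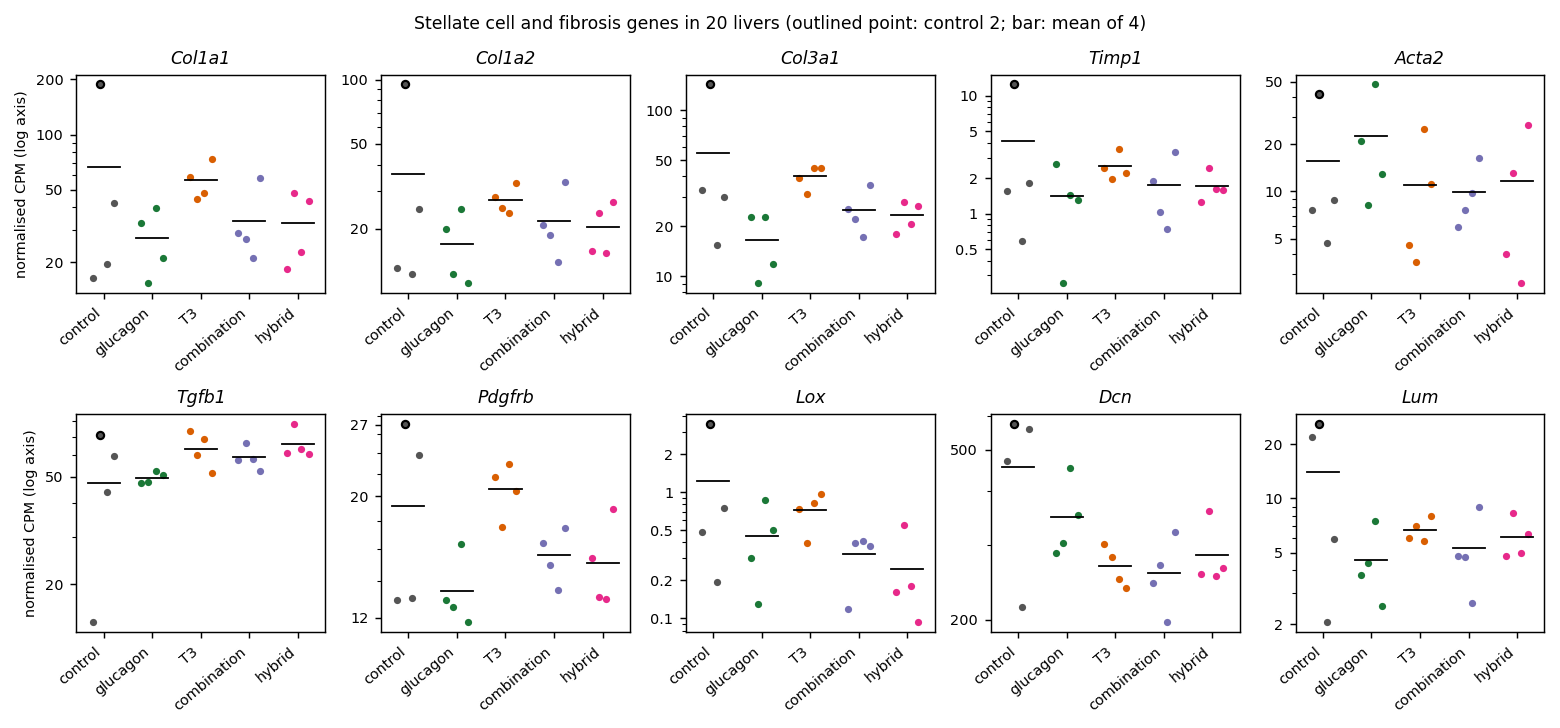
Normalised CPM (log axis) of the 10 genes in each of 20 libraries, by group, with a bar at the mean of 4; the outlined point is control 2. Control 2 tops the controls in all 10 panels, at 188 CPM for Col1a1 against 16.5 to 42.0 in the other controls.

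Timp1 varied with the collagens from library to library. It measured 1.55, 12.5, 0.588 and 1.81 CPM in controls, 2.63, 0.259, 1.44 and 1.31 in glucagon, and 2.45, 1.97, 3.54 and 2.24 in T3. The combination ranged from 0.740 to 3.34 and the hybrid from 1.25 to 2.46. Counts were few, from 4 to 259 per library. No change against control passed the test, with log2 differences from -1.56 ± 0.70 (glucagon, adjusted p = 0.122) to -0.71 ± 0.70 (T3, adjusted p = 0.508).

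Lox, the lysyl oxidase that crosslinks collagen (chromosome 18, 52516067 to 52529867, minus strand), was too low for the main test. It had 72 counts in control 2 (3.48 CPM) and 0.196 to 0.754 CPM in the other controls. Treated libraries ran from 0.0933 to 0.959 CPM, and T3 had the highest treated mean, 0.728 ± 0.242 (SD, n = 4). With no filter on low counts, Lox differed by -2.24 ± 0.74 in hybrid against control (edgeR, adjusted p = 0.0338) and by -2.30 ± 0.82 with DESeq2 (adjusted p = 0.0229). That difference was not called without hybrid 1 (adjusted p = 0.0819), hybrid 3 (0.0786) or hybrid 4 (0.0818), and without control 2 Lox was too low to be tested.

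Dcn and Lum encode decorin and lumican, small proteoglycans that bind collagen fibrils, and both lie on chromosome 10 (97479609 to 97518143 and 97565128 to 97572703, plus strand). Dcn was the most counted of the 10 genes. It measured 470, 576, 215 and 561 CPM in controls, 286, 303, 453 and 352 in glucagon, and 301, 281, 250 and 237 in T3. It measured 244, 270, 197 and 322 in the combination and 256, 360, 253 and 264 in the hybrid. Of the controls, 3 lay above every T3, combination and hybrid library, while control 3 lay among or below them. Dcn fell by 0.77 ± 0.24 under T3 (adjusted p = 0.0337), by 0.82 ± 0.24 under the combination (adjusted p = 0.0216) and by 0.69 ± 0.24 under the hybrid (adjusted p = 0.0446). Under glucagon the difference was -0.39 ± 0.24 (adjusted p = 0.272). These comparisons share the same controls.

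The calls on Dcn were near the threshold. Without control 2 the differences were -0.63, -0.69 and -0.54 for T3, combination and hybrid, with adjusted p of 0.0804, 0.0564 and 0.115. Leaving out control 1 gave adjusted p of 0.0683 for T3 and 0.0725 for the hybrid, and leaving out control 4 gave 0.0808, 0.0574 and 0.120. Each T3 library left out ended the T3 call, at 0.0525 to 0.0879, as did combination 1 and combination 3 for the combination, at 0.0574 and 0.0712. The hybrid call ended in 15 of the 20 fits that left out 1 library, and under the replicate block (adjusted p = 0.061). Fitting only the groups compared gave adjusted p of 0.165, 0.133 and 0.194 for T3, combination and hybrid. Leaving out control 3 moved the differences to between -1.07 and -0.92. Without control 2 and glucagon 3 together the combination alone was still called, at -0.70 ± 0.24 (adjusted p = 0.0469). With all libraries Dcn also differed in the 5-group test (adjusted p = 0.0329), where 42.4% of 12907 genes tested were called. That call held under the replicate block (0.0478). It ended without control 2 (0.104), without control 4 (0.104) and without control 2 and glucagon 3 (0.12), among other settings.

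Lum was high in 2 of the 4 controls. It measured 21.9, 26.0, 2.06 and 5.96 CPM in controls and 3.76, 4.398, 7.47 and 2.52 in glucagon. T3 ran from 5.78 to 7.99, the combination from 2.63 to 9.00 and the hybrid from 4.79 to 8.27, all inside the control range. Lum fell by 1.63 ± 0.53 under glucagon (adjusted p = 0.032). The call ended without control 1 (adjusted p = 0.0938), without control 2 (0.121), without any of glucagon 1, 2 and 4 (0.0745 to 0.0954), with the replicate block (0.0875), with only the groups compared (0.175) and without control 2 and glucagon 3 (0.0677).

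**Figure D2:**
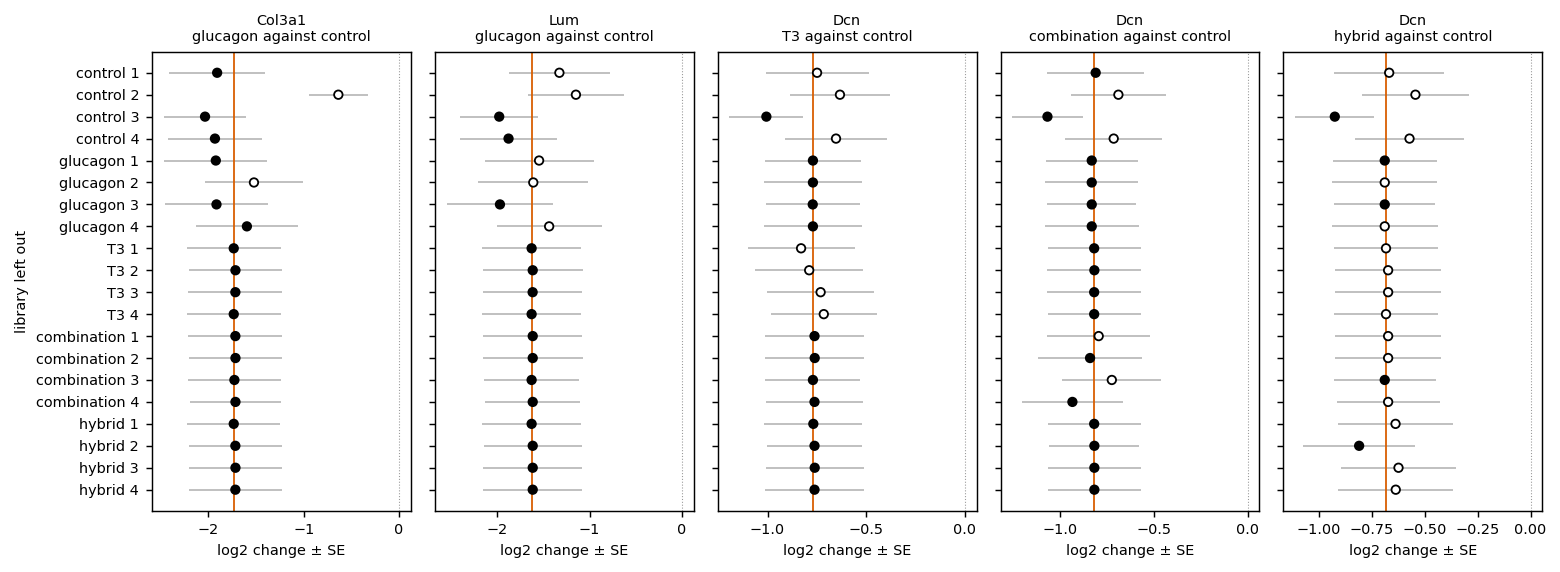
Log2 change ± SE against control for Col3a1, Lum and Dcn when each of the 20 libraries named on the vertical axis is left out; filled points have an adjusted p under 0.05, open points do not, and the orange line is the value with all libraries. Without control 2 the Col3a1 change under glucagon moves from -1.73 to -0.64.

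Tgfb1 encodes the cytokine TGF-beta 1 (chromosome 7, 25687002 to 25705077, plus strand) and did not follow the collagens. It measured 14.5, 71.0, 43.9 and 59.4 CPM in controls, 47.3, 47.7, 52.4 and 50.5 in glucagon, and 73.5, 59.9, 68.9 and 51.6 in T3. The combination measured 57.8, 66.7, 58.3 and 52.6 and the hybrid 61.1, 78.4, 63.4 and 60.4. Control 1 was the lowest library of all. The combination and hybrid libraries lay wholly above those of glucagon, as 17.5% of genes did in each of these comparisons, but the tests gave adjusted p of 0.583 and 0.317. The hybrid difference from glucagon, 0.41 ± 0.28 with all libraries, was called when only those groups were fitted (adjusted p = 0.0185) and without control 1 (adjusted p = 0.0398). Over the 20 libraries the coefficient of variation within groups ran from 4.83% in glucagon to 51.8% in controls.

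Pdgfrb encodes the PDGF receptor beta, found on stellate cells and pericytes (chromosome 18, 61045150 to 61085061, plus strand). It measured 12.9, 27.1, 13.04 and 23.8 CPM in controls, 11.8 to 16.4 in glucagon, 17.6 to 22.9 in T3, 13.5 to 17.5 in the combination and 12.99 to 18.9 in the hybrid. Controls fell in 2 pairs, low in 1 and 3 and high in 2 and 4. The means of T3 and glucagon were 20.7 ± 2.29 and 13.4 ± 2.04 (SD, n = 4 each), and T3 was not tested against glucagon. Glucagon differed from control by -0.52 ± 0.21 (adjusted p = 0.0877).

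Acta2, the smooth muscle actin of myofibroblasts and vessel walls (chromosome 19, 34241090 to 34255590, minus strand), varied within every group. It measured 7.59, 41.5, 4.70 and 8.82 CPM in controls, 20.8, 8.21, 48.0 and 12.9 in glucagon, and 4.54, 3.54, 24.9 and 11.2 in T3. It measured 5.92, 7.66, 9.78 and 16.4 in the combination and 4.02, 13.2, 2.62 and 26.6 in the hybrid. The high libraries were spread over the groups, and no difference passed the test. Tagln and Myh11 encode smooth muscle cytoskeletal and motor proteins. The 5 libraries of highest Acta2 were also the 5 of highest Tagln. Tagln measured 42.7 CPM in glucagon 3, 40.5 in control 2, 31.7 in hybrid 4, 31.4 in glucagon 1 and 27.3 in T3 3, and 9.51 to 22.7 elsewhere. Myh11 measured 22.3, 10.5, 14.0, 8.54 and 11.4 CPM in those 5 libraries in that order, and 9.37 in combination 4, above glucagon 1. Acta1, the skeletal muscle actin, was high in glucagon 3 (997 CPM), control 2 (285) and hybrid 4 (254) but stood at 3.66 in T3 3 and 1.61 in glucagon 1. The part of these other tissues in the Acta2 values was not tested.

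**Figure D3:**
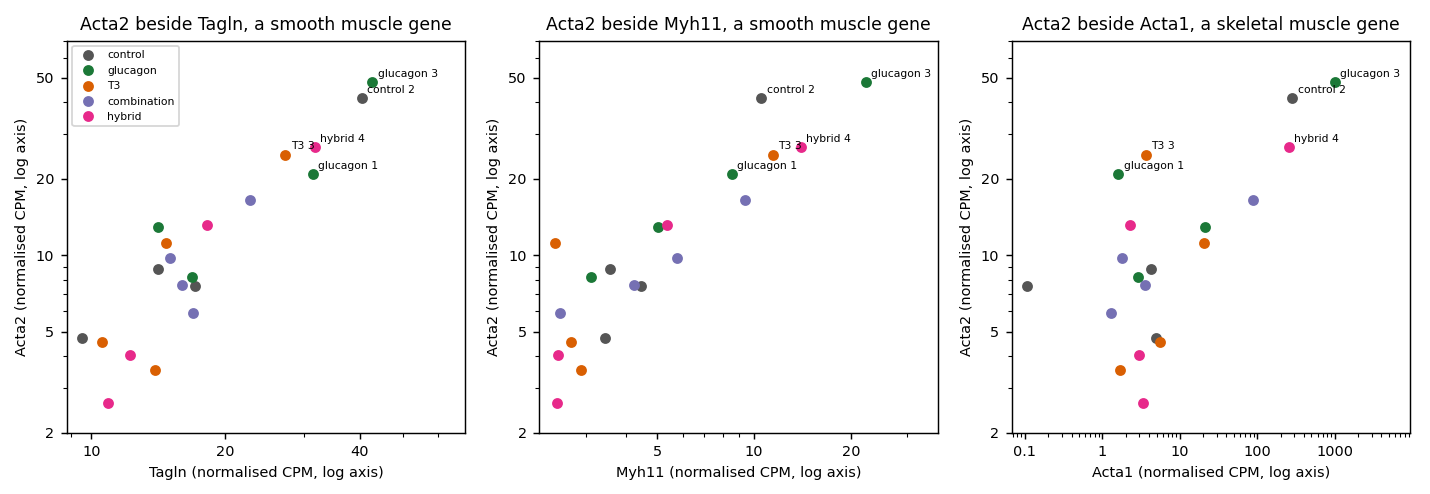
Acta2 against Tagln, Myh11 and Acta1 in 20 libraries, all in normalised CPM on log axes, coloured by group, with the 5 libraries of highest Acta2 named. Acta2 and Tagln are high in the same 5 libraries, while Acta1 is high in 3 of them.

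Of the 10 genes, 9 were tested. The 5-group test called 2 of 9 (Col3a1 and Dcn), where 42.4% of all genes were called. Against control, glucagon lowered 2 of 9 (Col3a1 and Lum), where 11.9% of all genes fell and 21.2% changed. T3 lowered 1 of 9 (Dcn), where 10.6% of genes fell and 18% changed. The combination lowered 1 of 9 (Dcn), where 10.9% fell and 20.1% changed, and the hybrid lowered 1 of 9 (Dcn), where 13.2% fell and 24.4% changed. None of the 9 rose, where 9.23%, 7.31%, 9.23% and 11.2% of all genes did. No gene of the 10 had treated libraries wholly outside the control range, which 16.6%, 15%, 16.6% and 17.7% of genes had. Leaving out control 3 alone gave 8 genes called under glucagon, all lower: Col1a1, Col1a2, Col3a1, Timp1, Pdgfrb, Dcn, Lum and Lox. The share of all genes called in that fit was not counted, so the 8 cannot be set against it. The median log2 difference of the 9 genes was -1.09, -0.47, -0.82 and -0.84 for glucagon, T3, combination and hybrid, beside -0.09, -0.05, -0.07 and -0.05 (-0.045) over all genes. With both control 2 and glucagon 3 left out it was -0.20, 0.64, 0.35 and 0.28, so the sign turned for 3 of the 4 treatments. In that setting 0, 0, 1 and 0 of the 9 fell, where 8.89%, 11.8%, 12.2% and 15.4% of genes did.

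**Figure D4:**
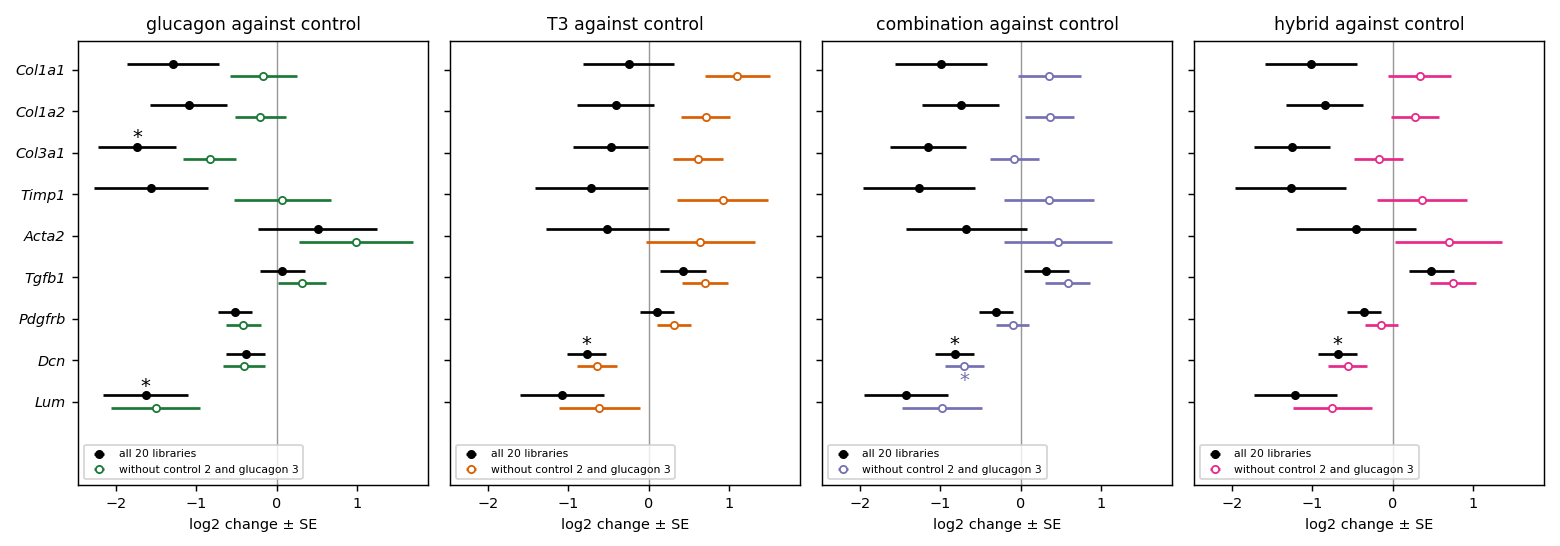
Log2 change ± SE of the 9 tested genes against control in the 4 treatments, with all 20 libraries (filled) and without control 2 and glucagon 3 (open); stars mark an adjusted p under 0.05. The T3 change of Col1a1 is -0.25 with all libraries and 1.103 without the pair.

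Against controls 1, 3 and 4 alone, all T3 libraries lay above for Col1a1 (44.4 to 73.7 against 16.5 to 42.0 CPM) and Timp1 (1.97 to 3.54 against 0.588 to 1.81). All hybrid libraries lay above them for Tgfb1 (60.4 to 78.4 against 14.5 to 59.4 CPM). Over all genes tested, 11.2% of T3 and 13.7% of hybrid comparisons lay wholly above in this way. Without control 2 and glucagon 3 the T3 difference of Col1a1 was 1.103 ± 0.40 (adjusted p = 0.056).

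Between treatments, edgeR with all 20 libraries called 0 of the 9 genes in each of 5 comparisons. The share of all genes called was 22.5% for combination against glucagon, 0.031% for hybrid against combination and 25.2% for hybrid against glucagon. It was 6.36% for hybrid against T3 and 3.73% for additivity. Additivity set the combination against the summed log2 effects of the single hormones, which is the product of their fold changes. At an unadjusted p under 0.05, 1 of the 9 passed for hybrid against T3 and 0 in each of the others. By DESeq2 the count called was also 0 in each. For hybrid against combination the 95% interval was -1.21 to 1.16 for Col1a1, -1.09 to 0.88 for Col3a1 and -0.37 to 0.64 for Dcn, so differences within these bounds were not excluded. Col3a1 was lower in all hybrid than in all T3 libraries, as 8.87% of genes were, a difference of -0.78 ± 0.47 (adjusted p = 0.351) that was called when only those groups were fitted (adjusted p = 0.0137). As the lane of T3 differed, the hormone and the lane cannot be told apart there, nor in additivity, which includes the T3 group.

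Genes that vary like the collagens were sought over all libraries. Likeness was the Pearson r with the mean z score of Col1a1, Col1a2 and Col3a1 over 20 libraries, which share depth and control 2, and is a description. The closest 6 were Col6a3 (0.928), Loxl1 (0.913), Loxl2 (0.906), Fkbp10 (0.891), Col6a2 (0.883) and Col6a1 (0.876). Without control 2, over 19 libraries, these were 0.859, 0.860, 0.838, 0.806, 0.756 and 0.767. The closest 6 chosen over those 19 libraries were Loxl1, Col6a3, Loxl2, Myadm (0.833), Col4a1 (0.823) and Fkbp10. Among the 10 genes, Timp1 had 0.896 and Pdgfrb 0.832, while Lum had 0.691, Acta2 0.480, Dcn 0.413 and Tgfb1 0.347. Without control 2 Dcn had 0.112. Dcn counts were 3.21 to 6.33 times those of Col1a1 in T3 livers, 8.68 to 19.6 times in glucagon, 5.57 to 10.1 in the combination, 6.13 to 13.9 in the hybrid and 3.07 to 28.4 in controls, which spanned all groups, without correction for length.

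Other genes of the same biology were counted from lists of quiescent stellate, matrix, collagen processing, protease, TGF-beta, PDGF, contractile and portal fibroblast genes. Of 41 matrix genes tested, 2 rose and 1 fell under glucagon, 3 rose and 2 fell under T3, 2 rose and 4 fell under the combination, and 3 rose and 7 fell under the hybrid. Of 20 collagen processing genes, 0 rose and 2 fell under glucagon, while 4, 4 and 5 rose and 0 fell under T3, combination and hybrid. Of 32 TGF-beta pathway genes, 2 rose and 2 fell under glucagon, 1 and 3 under T3, 3 and 2 under the combination, and 5 and 3 under the hybrid. Of 18 quiescent stellate genes, 1, 2, 4 and 2 fell in the same order and 1 rose, under T3. Of 14 contractile genes 1, 1, 2 and 1 fell and 0 rose. Of 24 protease and inhibitor genes, 4, 2, 3 and 2 fell and 1 rose, under glucagon. Of 6 PDGF pathway genes 1 fell in each treatment, and of 13 portal fibroblast and mesothelial genes 1, 0, 2 and 5 fell. Over all genes 9.23%, 7.31%, 9.23% and 11.2% rose and 11.9%, 10.6%, 10.9% and 13.2% fell. With control 2 and glucagon 3 left out, matrix genes counted 3 up and 0 down, 4 and 1, 4 and 2, and 3 and 2 of 40. Collagen processing genes then counted 1 up under glucagon and 6, 5 and 4 up in the others, with 0 down. Quiescent stellate genes counted 0 up and 0 down, 1 and 2, 1 and 3, and 1 and 4, TGF-beta genes 2 and 1, 3 and 4, 4 and 3, and 6 and 2, and contractile genes 0, 0, 2 and 1 down with 0 up. Protease genes counted 3 and 2, 0 and 2, 0 and 2, and 2 and 2 of 23, PDGF genes 0, 1, 1 and 1 down, and portal genes 1, 1, 1 and 5 down. Over all genes 8.89%, 11.8%, 12.2% and 15.4% fell in that setting. The shares that rose are not given here, so the counts up cannot be set against them.

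Taking every called gene among the 3 of smallest p in each of these lists gave 109 gene and comparison pairs of 49 genes. The call held under every alternative in 49 of the 109 pairs. Against control it held in 4 of 15 pairs for glucagon, 3 of 16 for T3, 4 of 20 for the combination and 12 of 18 for the hybrid. Fitting only the groups compared ended 46 of the 109 calls. The genes below are described with that limit, and any call that a setting ended is said to have been lost.

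Col12a1, a collagen that decorates fibrils, rose in all 4 treatments. It measured 4.49, 8.11, 4.70 and 5.96 CPM in controls, 40.6 to 54.8 in glucagon, 8.65 to 20.3 in T3, 27.7 to 44.4 in the combination and 25.2 to 43.6 in the hybrid. No treated library overlapped a control. The changes were 3.01 ± 0.26, 1.24 ± 0.26, 2.65 ± 0.26 and 2.57 ± 0.26 (adjusted p = 7.16e-08, 0.0029, 9.93e-07 and 1.2e-06), and the T3 call was lost when only those groups were fitted. On the log2 scale the combination fell short of the summed effects of the single hormones by -1.61 ± 0.35 (adjusted p = 0.00986). That sum includes T3, which cannot be told apart from its lane.

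Col5a3, a type V collagen chain, fell under T3, combination and hybrid. It measured 49.0, 21.3, 62.9 and 36.8 CPM in controls, where control 2 was the lowest, and 28.7 to 42.4 in glucagon. It measured 11.4 to 22.1 in T3, 10.5 to 17.1 in the combination and 3.34 to 10.4 in the hybrid. The changes were -1.36 ± 0.32, -1.75 ± 0.32 and -2.64 ± 0.33 (adjusted p = 0.00641, 0.000622 and 1.08e-05). Hybrid differed from T3 by -1.27 ± 0.33 (adjusted p = 0.0236), a call lost in 5 alternatives.

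Cyr61 and Ctgf encode secreted matricellular proteins that TGF-beta and mechanical signals induce. Cyr61 measured 48.9, 125, 42.0 and 35.5 CPM in controls and 16.6 to 30.6 in glucagon, 9.70 to 20.6 in T3, 10.8 to 16.0 in the combination and 11.2 to 18.9 in the hybrid. All treated libraries lay below all controls, and it fell by 1.52 ± 0.33, 2.22 ± 0.35, 2.28 ± 0.34 and 2.22 ± 0.34 (adjusted p = 0.0028, 0.000245, 0.000109 and 0.000102). Without control 2 and glucagon 3 the falls were 0.93, 1.64, 1.71 and 1.64 and were still called. Ctgf fell by 1.73 ± 0.43 under T3 (adjusted p = 0.00992), which became -0.91 without that pair and was lost when only those groups were fitted.

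Pdgfc, a ligand of the PDGF receptor alpha, fell under T3 (-1.16 ± 0.28, adjusted p = 0.00755), combination (-1.47 ± 0.27, adjusted p = 0.000724) and hybrid (-1.03 ± 0.27, adjusted p = 0.00761). It measured 4.55 to 9.66 CPM in controls and 2.05 to 3.14 in the combination. The T3 and hybrid calls were lost when only those groups were fitted. Reln, which encodes reelin and marks stellate cells in liver, fell by 0.64 ± 0.17, 0.67 ± 0.17 and 0.72 ± 0.17 in the same groups (adjusted p = 0.0143, 0.00849 and 0.00432), and each call was lost in 1 to 3 alternatives. Its controls measured 96.1, 70.4, 49.4 and 73.5 CPM and the hybrid 43.0 to 44.9.

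**Figure D5:**
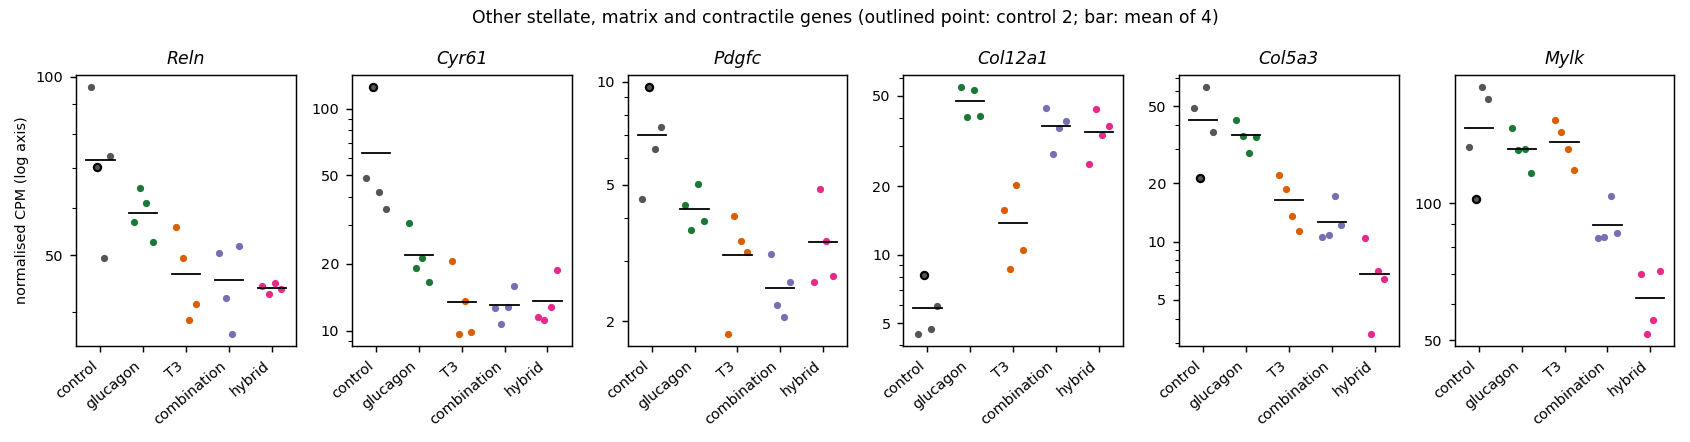
Normalised CPM (log axis) of Reln, Cyr61, Pdgfc, Col12a1, Col5a3 and Mylk in 20 libraries by group, with a bar at the mean of 4; the outlined point is control 2. Col12a1 is higher in all 16 treated libraries than in the 4 controls, and Cyr61 is lower in all of them.

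Other genes from these lists follow. Mylk, the myosin light chain kinase, fell by 0.71 ± 0.17 under the combination (adjusted p = 0.00521), a call lost with only those groups, and by 1.24 ± 0.17 under the hybrid (adjusted p = 2.56e-05), and was lower in hybrid than in T3 by -1.14 ± 0.17 (adjusted p = 0.000376). Tgm2, a transglutaminase that crosslinks matrix proteins, rose by 0.66 ± 0.21 under T3, 0.91 ± 0.21 under the combination and 1.18 ± 0.22 under the hybrid (adjusted p = 0.0391, 0.00574 and 0.00051). The T3 call was lost in 8 alternatives, the replicate block among them (adjusted p = 0.051), and the combination call in 1. Lepre1, a collagen prolyl hydroxylase, rose by 0.76 ± 0.18 under the combination (adjusted p = 0.00599), a call lost with only those groups, and by 0.95 ± 0.18 under the hybrid (adjusted p = 0.000781). Skil, an inhibitor of SMAD signalling, rose by 1.56 ± 0.24 under glucagon (adjusted p = 0.000107). In the combination Skil fell short of log2 additivity by -1.58 ± 0.34 (adjusted p = 0.00911), a contrast that includes T3 and its lane. Thbs1, thrombospondin 1, differed by 1.94 ± 0.68 under glucagon (adjusted p = 0.0458), a call lost in 15 alternatives. The difference was 3.75 without control 2 and glucagon 3 (adjusted p = 0.000171). Thbs1 was lower in the combination than in glucagon by -3.23 ± 0.73 (adjusted p = 0.00285). Loxl2 and Plod2, both collagen modifying enzymes, fell by 0.93 ± 0.29 and 1.46 ± 0.47 under glucagon (adjusted p = 0.0298 and 0.0317), and these calls were lost in 7 and 8 alternatives, the replicate block among them (adjusted p = 0.063 and 0.0652). Leaving out control 2 and glucagon 3 gave differences of -0.60 and -0.98 (adjusted p = 0.142 and 0.13).

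Markers of other cells moved with some groups. Summed CPM of 21 macrophage genes was 590.4 to 738.8 in glucagon, 751.1 to 1567 in controls and 1623 to 2050 in T3. Summed CPM of 13 cholangiocyte genes was 149.3 to 262.2 in controls and 108.3 to 122.8 in glucagon, and of 14 portal fibroblast and mesothelial genes 83.1 to 293.3 and 64.2 to 150.9, with control 2 the highest in both. Summed CPM of 10 hepatocyte genes was 159100 to 284400 in controls, 110700 to 156500 in T3, 119200 to 181100 in the combination and 100500 to 146800 in the hybrid, where Dcn, Reln and Pdgfc fell. Of these 10 genes, 0 rose and 3, 1 and 5 fell in T3, combination and hybrid. Alb held most of the sum, with a mean of 152100 CPM in controls and 87980, 104900 and 79850 in those groups. Hnf4a went the other way in each, with means of 866.4 in controls and 949.7, 1275 and 1050. Apoa1 and Serpina1a had higher means in T3 (12080 and 150.6) than in controls (10840 and 121.7), and lower ones in the combination and hybrid. Cps1 was higher in the combination (2652) and hybrid (2594) than in controls (2312), and lower in T3 (1632). Means of Ttr, Apob, Trf, Fgb and Asgr1 were lower in all of these groups. Summed CPM of 8 adipocyte genes was 975.6 to 5255 in controls, 471.4 to 1312 in T3, 488.9 to 710.5 in the combination and 166.7 to 492.2 in the hybrid. Of these, 7 were tested, and their median log2 difference was 0.46, 0.11 and 0.38 in T3, combination and hybrid. There 0, 1 and 1 of the 7 rose and 1 fell in each. The adipocyte sums thus differed in direction from the median of their genes. Summed CPM of 17 cell cycle genes was 47.0 to 142.4 in controls and 111.3 to 208.4 in the hybrid. Summed CPM of 18 quiescent stellate genes was 575.6 to 1006 in controls and 683.5 to 1019 in glucagon. It was 936.9 to 1130 in T3, 761.5 to 846.2 in the combination and 658.4 to 1030 in the hybrid. T3 libraries thus lay wholly above those of the combination, and every group overlapped the controls. The part of these cells in the results was not tested.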

How the data were processed

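RNA from 20 mouse livers was extracted with a Qiagen kit and made into libraries with Lexogen reagents, per the labels' protocols. The authors deposited raw counts for gene symbols. HTSeq and the build mm10 are named in the submitters' processing notes. Not given in the sources used here are the aligner, the annotation and whether counting used strand. Each listed symbol reached at least 20 counts in some library, and 12113 of 13319 symbols matched GENCODE M21 names, which gave positions.

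Counts were tested in R 4.3.3 with edgeR 4.0.16: filterByExpr (minimum count 10, minimum total 15; 12907 genes kept, 412 dropped), TMM scaling, 5 group means over all 20 libraries, quasi-likelihood F test and Benjamini-Hochberg adjustment over all genes within each of 9 contrasts and a 5-group test. An adjusted p under 0.05 was called. Errors are SE for log2 changes and SD for CPM. Alternatives were RLE factors, no filter, DESeq2 1.42.0, only the groups compared, a replicate block, each library left out, and, added after seeing the data, control 2 and glucagon 3 left out. The fit was tested on simulated data.

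The genes and lists were chosen with earlier results of these data known. The naming rule took the 10 genes, at most the 3 smallest p of each other list in a comparison, and the 6 genes most like the collagens. Results of some genes are not reported here. An earlier hand-made choice of the named genes, drawn up after their stability had been seen, was discarded; the counts of calls that held cover all 109 called pairs that the rule gives for the 8 stellate, matrix and signalling lists. Replicate numbers mark lanes 1 to 4 in 4 groups per the labels, which is where the pairing comes from. All T3 libraries were in lane 5, so their replicate numbers stand for no lane. The replicate block over all 20 libraries still placed them by number, which limits it for T3 comparisons and the 5-group test. Over 24 pairs outside T3 the correlation of same-numbered libraries ran from -0.318 to 0.462, and 10 pairs were over 0.1.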

Additional observations from a re-analysis of the deposited data

Results flagged for a closer look

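Of 50 gene and group sets of 4 libraries screened, 9 had a highest or lowest library far from the other 3 (gap over range above Dixon's 95% critical value), and chance flags about 1 in 20. Control 2 gave 6 of the 9: Col1a1 at 187.8 CPM, Col1a2 at 94.93, Col3a1 at 143.2, Timp1 at 12.51, Acta2 at 41.48 and Lox at 3.477, each above the other controls. Lox was low in combination 1, at 0.1184 CPM. The library hybrid 2 was high for Tgfb1, at 78.41 CPM, and for Dcn, at 359.9 CPM.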

How the results depend on the processing

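The count of genes called, out of the 10 and with Lox where a setting tests it, depended on single libraries. Leaving out 1 library gave 0 to 8 for glucagon against control (8 without control 3), 0 to 2 for T3, 0 to 4 for the combination, 0 to 4 for the hybrid, 0 to 1 for hybrid against glucagon and 1 to 5 for the 5-group test. Fitting only the groups compared gave 0 for each treatment against control, and 1 for hybrid against glucagon and for hybrid against T3. The replicate block, with all 20 libraries or with lanes 1 to 4, gave 0 for glucagon and 0 for the hybrid, and 1 in the 5-group test with all 20; it ended 8 and 11 of the calls of other genes and, beyond these, changed no other call. DESeq2 gave 2 for the combination, 3 for the hybrid and 4 in the 5-group test, and no filter gave 2 for the hybrid, Lox included. Without control 2 and glucagon 3 together the count was 0 for glucagon, T3 and hybrid and 1 in the 5-group test. RLE factors changed no count of these genes. The cause of these shifts was not tested. The share of all genes called was counted only in the main fit and without control 2 and glucagon 3. The other counts cannot be set against such a share.

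Direction turned in these cases. Without control 2 and glucagon 3 the log2 differences were Timp1 0.068 (glucagon against control), Col1a1 1.103, Col1a2 0.709, Col3a1 0.611, Timp1 0.917 and Acta2 0.642 (T3 against control), Col1a1 0.354, Col1a2 0.361, Timp1 0.349 and Acta2 0.465 (combination against control), Col1a1 0.336, Col1a2 0.275, Timp1 0.359 and Acta2 0.695 (hybrid against control), Timp1 0.010 (hybrid against combination), Col1a1 -0.583, Col1a2 -0.145 and Timp1 -0.637 (additivity). The replicate block gave 0.1 for Col1a1 in T3 against control and -0.041 for Col1a1 in hybrid against glucagon, and fitting only the groups compared gave 0.009 for Timp1 in hybrid against combination. Leaving out 1 library at a time gave the following ranges of log2 difference. For glucagon against control it took Col1a1 from -1.603 to 0.080, Col1a2 from -1.369 to 0.043, Timp1 from -2.086 to 0.087, Acta2 from -0.166 to 1.678 and Tgfb1 from -0.225 to 0.355. For T3 against control it took Col1a1 from -0.569 to 1.112, Col1a2 from -0.691 to 0.717, Col3a1 from -0.775 to 0.620, Timp1 from -1.052 to 0.929, Acta2 from -1.308 to 0.650 and Pdgfrb from -0.048 to 0.322. For combination against control it took Col1a1 from -1.362 to 0.368, Col1a2 from -1.038 to 0.375, Timp1 from -1.733 to 0.370 and Acta2 from -1.013 to 0.477. For hybrid against control it took Col1a1 from -1.337 to 0.349, Col1a2 from -1.125 to 0.289, Timp1 from -1.611 to 0.378 and Acta2 from -1.220 to 0.705. For combination against glucagon it took Col1a1 from -0.092 to 0.519, Timp1 from -0.190 to 0.814 and Lum from -0.172 to 0.532. For hybrid against combination it took Col1a1 from -0.255 to 0.362, Col1a2 from -0.246 to 0.183, Col3a1 from -0.236 to 0.110, Timp1 from -0.243 to 0.482, Acta2 from -0.547 to 0.569 and Pdgfrb from -0.161 to 0.023. For hybrid against glucagon it took Timp1 from -0.069 to 0.819. For hybrid against T3 it took Acta2 from -0.717 to 0.864, Tgfb1 from -0.039 to 0.131 and Dcn from -0.048 to 0.147. For the departure from additivity it took Col1a1 from -0.824 to 0.854, Col1a2 from -0.385 to 1.022, Col3a1 from -0.047 to 1.346, Timp1 from -0.646 to 1.522, Acta2 from -1.851 to 0.110, Tgfb1 from -0.469 to 0.107 and Pdgfrb from -0.115 to 0.254. Lox, which the main fit did not test, differed between combination and glucagon by -0.461 with no filter and by 0.081 without glucagon 3. None of the 109 differences of other genes named by rule changed direction under these alternatives.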
